A study of Mus musculus with 7 samples.

Results

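The subunits of the mitochondrial respiratory chain that are encoded in the nucleus were followed in sorted tumour cells of mouse skin. Genes were chosen by their symbols, as complex I (the Nduf genes), complex II (Sdha, Sdhb, Sdhc and Sdhd), complex III (the Uqcr genes), complex IV (the Cox4 to Cox8 genes) and complex V (the Atp5 genes). This gave 81 of the 18193 genes measured, with 35 in complex I, 4 in complex II, 8 in complex III, 17 in complex IV and 17 in complex V. Measured values chose the probe set of each gene, the brightest over the 7 arrays, and not the genes. Ndufs6, Ndufa11 and Cox7b match the same symbols and are not analysed here, because no probe set names them alone. Ndufa4 was kept with complex I by its symbol, although current nomenclature counts its protein with complex IV.

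RNA came from skin tumours raised with DMBA, a carcinogen, and TPA, a promoter of tumour growth, from which cells positive for Cd34 and Epcam were sorted. The 4 carcinoma arrays (1, 2, 3 and GFP) hold malignant tumours and the 3 papilloma arrays (1, 2 and GFP) benign ones. The labels put the name Nr2f2 before the tumour type on every array and state no genotype, strain, age or sex, and they do not explain the GFP tag. Whether each array stands for its own animal is not stated, so a p-value here covers the spread among these arrays alone, and that spread may be technical.

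Complex I takes electrons from NADH, and complex II takes them from succinate. Both hand them to coenzyme Q, complex III passes them on to cytochrome c, and complex IV passes them to oxygen. Complexes I, III and IV pump protons across the inner mitochondrial membrane, and complex V uses the returning protons to make ATP. Most subunits are encoded in the nucleus and the others in mitochondrial DNA, whose genes are not among those chosen here. In epidermis and its tumours the chain works beside glycolysis as a source of ATP.

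All values are log2 levels from 1 probe set per gene, the brightest over the 7 arrays, so a difference of 1 is a factor of 2. A level belongs to its probe set and cannot be set against that of another gene. Of the 81 genes, 73 lay at or above 6.64, the mean level of the median gene, and 8 lay under it, 7 of them in complex IV and the other being Ndufb4. The complex IV genes under this level include Cox6a2, Cox7a1 and Cox8b, known as the muscle forms of their subunits, Cox4i2, known from lung, Cox6b2 and Cox7b2, known from testis, and Cox7c, whose usable probe set averaged 6.05. The 8 skeletal muscle markers averaged 4.67 to 5.02 on the 7 arrays. Precision is limited by having 4 and 3 arrays.

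The GFP arrays stood apart from the other 5. The 8 endothelial markers averaged 10.87 and 10.67 on the carcinoma and papilloma GFP arrays, against 5.06 to 5.66 on the others. All 8 were called higher by limma at an adjusted p under 0.05, against 11.9% of all genes. Basal keratinocyte markers averaged 10.82 and 10.61 on the GFP arrays, against 11.46 to 12.26 on the others. Of these, 4 of 8 were called lower, against 7.93% of all genes. Of the sorting markers, Cd34 was at 11.73 and 11.66 on the GFP arrays against 8.76 to 10.80, and Epcam at 9.59 and 8.28 against 10.52 to 11.97. Papilloma 2 was the lowest of the untagged arrays in Cd34, in Epcam and in the mean of the basal keratinocyte markers, and the 11.46 is its value. Epcam is itself among the 8 basal keratinocyte markers, so its reading and their mean are not separate.

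Regulators of these genes include NRF1, GABPA, YY1 and the oestrogen-related receptors, transcription factors known for sites at promoters of nuclear mitochondrial genes. The promoter sequences are from RefSeq (GRCm38.p6), which holds a window of 300 bases, 250 before and 50 after the start site, for 66 of the 81 genes. The NRF1 letters GCATGCGC were found on either strand in the windows of 9 of these 66 genes (13.6%), against 4.68% of 14452 genes measured here with a window. The YY1 letters AAGATGGCG were in 6 (9.09%, against 2.53%), the GABPA letters CCGGAAGT in 5 (7.58%, against 6.62%) and the oestrogen-related receptor letters TCAAGGTCA in 2 (3.03%, against 0.401%). The searched letters do not contain one another, and a match is a description and not a site.

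The stretches of 180 bases that end at the base before the start site are shown for Ndufa8, Cox6a1 and Atp5k, since each of these genes was lower on every carcinoma array than on every papilloma array and holds the NRF1 letters before its start. All 3 lie on the minus strand, at chr2:36049339-36049518, chr5:115348959-115349138 and chr5:108434400-108434579. Capitals mark the NRF1 letters, which begin at position -8 in Ndufa8, -162 in Cox6a1 and -50 in Atp5k, counted back from the start site. In Cox6a1 and Atp5k the letters on both strands overlap. The other genes with the NRF1 letters, Ndufa6, Sdhb, Uqcr11, Uqcrc1, Atp5g2 and Atp5l, had overlapping tumour types. Ndufb10, Ndufb5, Ndufs7, Ndufs8 and Ndufv2 were lower on every carcinoma array and have windows without these letters.
Ndufa8: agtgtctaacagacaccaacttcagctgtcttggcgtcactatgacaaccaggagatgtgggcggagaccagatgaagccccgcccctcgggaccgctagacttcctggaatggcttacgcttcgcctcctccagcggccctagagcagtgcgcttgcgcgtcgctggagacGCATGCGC
Cox6a1: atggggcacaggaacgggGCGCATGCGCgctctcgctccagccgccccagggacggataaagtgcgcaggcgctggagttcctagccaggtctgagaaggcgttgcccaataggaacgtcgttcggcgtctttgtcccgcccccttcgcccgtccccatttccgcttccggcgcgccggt
Atp5k: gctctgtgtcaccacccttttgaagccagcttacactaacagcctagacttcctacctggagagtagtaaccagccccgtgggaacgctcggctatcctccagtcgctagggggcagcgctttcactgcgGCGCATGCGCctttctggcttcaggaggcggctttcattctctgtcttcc

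The first comparison asked how the subunits differ between carcinoma and papilloma cells. The mean was lower in carcinoma for 74 of the 81 genes (91.4%), against 53.1% of all genes, and the shifts were small. The median difference was -0.26 over the subunits and -0.02 over all genes. It was -0.32 in complex I, -0.19 in complex II, -0.32 in complex III, -0.22 in complex IV and -0.22 in complex V. No subunit passed the test on its own. Tumour type was fitted alone, so the GFP difference of a gene counts as spread within each type and widens its SE. It also moves the difference itself, since GFP is 1 of 4 carcinoma arrays and 1 of 3 papilloma arrays. A fall on the GFP arrays makes it less negative. With the tag as a covariate the median was -0.31 over the subunits, with 76 of 81 lower, and -0.01 over all genes. Cox8a moved from -0.25 ± 1.03 to -0.50 ± 0.14 (SE). In the fit of tumour type alone, limma gave 0 of 81 genes an adjusted p under 0.05, and the share among all genes was 0%. At an unadjusted p under 0.05, 5 subunits were lower (6.17%, against 0.291% of all genes) and 0 were higher (0.324% of all genes). All carcinoma arrays lay below all papilloma arrays for 10 subunits (12.3%, against 0.912% of all genes) and above them for 0 (0.506% of all genes). Where both GFP arrays lie below or above the other 5, the tumour types overlap by that alone. Both lay below for 31 subunits (38.3%, against 19.9% of all genes) and above for 3 (3.7%, against 21%). The count of non-overlapping genes in a complex thus depends on its GFP differences.

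**Figure D1:**
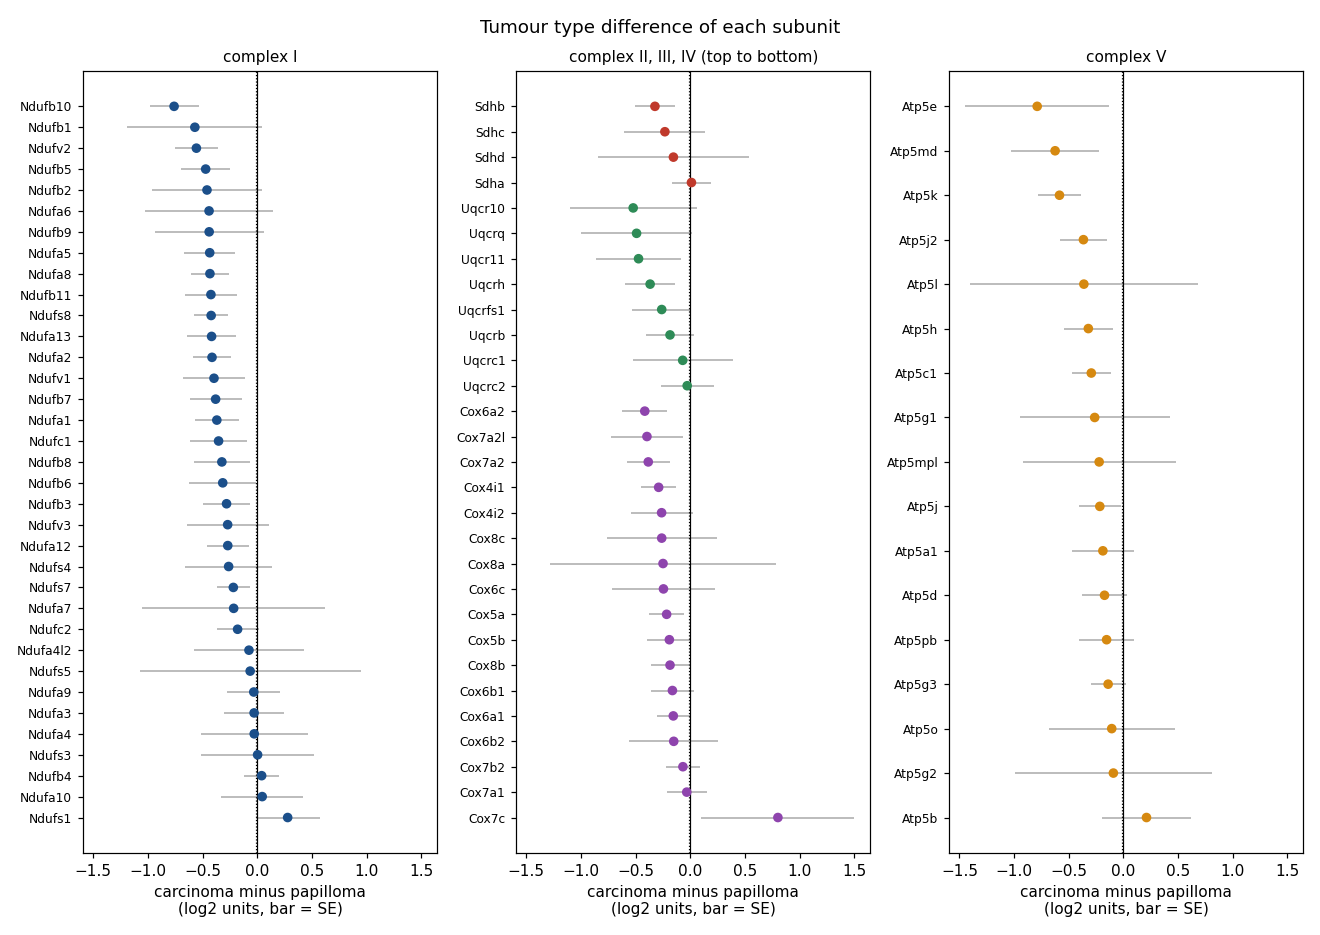
Carcinoma minus papilloma difference of each subunit in log2 units, 4 carcinoma against 3 papilloma arrays, sorted within each complex. Bars are the SE of the limma fit, the solid line is 0 and the dotted line is the median of all genes (-0.02), and 74 of 81 points lie left of 0.

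Complex I held 7 of the 10 genes whose groups did not overlap. Ndufb10, an accessory subunit of the membrane arm, was at 10.24, 10.40, 10.01 and 9.86 in carcinoma 1, 2, 3 and GFP, against 10.68, 11.27 and 10.72 in papilloma 1, 2 and GFP. Its difference was -0.76 ± 0.22 (SE), with a limma adjusted p of 1, and every carcinoma array lay below every papilloma array. An exact two-sided permutation test over the 35 splits of the arrays cannot give a p under 0.0571, and no such p is given for genes that stand out by their limma p in the same arrays.

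Ndufv2, a core subunit with an iron-sulphur centre, averaged 10.87 ± 0.10 in carcinoma and 11.43 ± 0.34 in papilloma (SD, n = 4 and n = 3), a difference of -0.56. Ndufs8, another core iron-sulphur subunit, averaged 11.37 ± 0.10 in carcinoma and 11.80 ± 0.16 in papilloma (SD, n = 4 and n = 3), a difference of -0.42. Ndufa8, an accessory subunit whose promoter is shown above, averaged 10.67 ± 0.12 in carcinoma and 11.10 ± 0.24 in papilloma (SD, n = 4 and n = 3), a difference of -0.43. These 3 genes had unadjusted p-values under 0.05 and adjusted p-values of 1 by limma. Ndufs7, a core subunit next to the coenzyme Q site, differed by -0.22, and Ndufa2 and Ndufb5 by -0.41 and -0.47, all without overlap of the groups. For Ndufs7 the gap was narrow, with carcinoma 2 at 10.637 and papilloma GFP at 10.655. Of the core subunits outside this set, Ndufv1, which binds NADH, differed by -0.40 with overlapping groups. Of the 4 complex I genes with the higher mean in carcinoma, Ndufs1, the largest core subunit, differed most, by 0.28 ± 0.29 (SE).

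The 4 subunits of complex II, which is also an enzyme of the citric acid cycle, had overlapping groups. For Sdhd both GFP arrays lay below the other 5, which by itself makes its groups overlap. Sdhb, the iron-sulphur subunit, was at 10.88, 10.70, 10.43 and 10.70 in carcinoma 1, 2, 3 and GFP, against 10.89, 11.26 and 10.86 in papilloma 1, 2 and GFP. Its difference was -0.32 ± 0.19 (SE). Sdha, the flavoprotein that oxidises succinate, differed by 0.01, and the membrane anchors Sdhc and Sdhd by -0.23 and -0.16.

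All 8 genes of complex III had the lower mean in carcinoma, from -0.52 for Uqcr10 to -0.03 for Uqcrc2, and all 8 had overlapping groups. Both GFP arrays lay below the other 5 in 4 of these genes and above them in 1, which by itself makes the groups overlap. Uqcrh, the hinge protein that helps cytochrome c dock, had the smallest unadjusted p of this complex. Its levels were 11.41, 11.41, 11.16 and 11.46 in carcinoma 1, 2, 3 and GFP, against 11.74, 12.15 and 11.29 in papilloma 1, 2 and GFP, so that papilloma GFP lay among the carcinoma arrays. The difference was -0.37 ± 0.23 (SE). RefSeq lists 2 pseudogenes named after Uqcrh. Uqcrfs1, the Rieske iron-sulphur subunit, differed by -0.26, and Uqcrc1, a core subunit, by -0.07.

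In complex IV 16 of 17 genes had the lower mean in carcinoma, and 2 of them had groups that did not overlap. Cox4i1, the common form of subunit 4, was at 12.48, 12.30, 12.48 and 12.51 in carcinoma 1, 2, 3 and GFP, against 12.59, 12.92 and 12.69 in papilloma 1, 2 and GFP, a difference of -0.29 ± 0.16 (SE). Cox6a1, the form of subunit 6a found in most tissues, averaged 13.14 ± 0.15 in carcinoma and 13.29 ± 0.05 in papilloma (SD, n = 4 and n = 3), a difference of -0.16. Its gap was narrow, with carcinoma 1 at 13.242 and papilloma GFP at 13.267. The differences of Cox4i1 and Cox6a1 were small, and their limma adjusted p was 1. Cox7a2 and Cox7a2l, related proteins of which Cox7a2l takes part in joining complexes III and IV, differed by -0.39 and -0.40. Cox7c had the only higher mean, by 0.80 ± 0.70 (SE), on its dim probe set.

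In complex V 16 of 17 genes had the lower mean in carcinoma. Atp5k, subunit e of the membrane part, was at 11.54, 11.52, 11.35 and 11.08 in carcinoma 1, 2, 3 and GFP, against 11.81, 12.23 and 11.83 in papilloma 1, 2 and GFP. Every carcinoma array was below every papilloma array, with a difference of -0.59 ± 0.20 (SE) and a limma adjusted p of 1. RefSeq lists 4 pseudogenes named after Atp5k, so its probe set may read other copies. Of the 81 genes, 10 have a pseudogene named after them there, and the same limit holds for them. Atp5e, the epsilon subunit, had the largest difference of the 81 genes downward (-0.79 ± 0.66, SE), with wide spread in both groups. Atp5b, the catalytic beta subunit, was the exception in sign at 0.21 ± 0.41 (SE), and the alpha and gamma subunits Atp5a1 and Atp5c1 differed by -0.19 and -0.29.

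The shift was uneven across arrays. Papilloma 2 gave the highest level of 50 of the 73 brighter subunits, with a median of 0.50 above each gene's mean, and carcinoma GFP gave the lowest level of 37 of the 73. Without papilloma 2, 51 of 81 genes had the lower mean in carcinoma, against 9178 of all 18193 genes. The median difference was -0.10 over the subunits, against -0.003 over all genes. By complex it was then -0.12 in complex I, 0.07 in complex II, -0.11 in complex III, -0.07 in complex IV and -0.10 in complex V. Without carcinoma GFP the median over the subunits was -0.16, with 60 of 81 lower, against a median of -0.02 for all genes. Carcinoma 1 to 3 against papilloma 1 alone gave -0.15, with 66 of 81 lower, against -0.06 for all genes, with 10703 of 18193 lower. Papilloma 2 is also the untagged array of lowest basal keratinocyte markers (11.46, against 12.12 to 12.26 on the other 4), and the part of this in the shift was not tested.

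**Figure D2:**
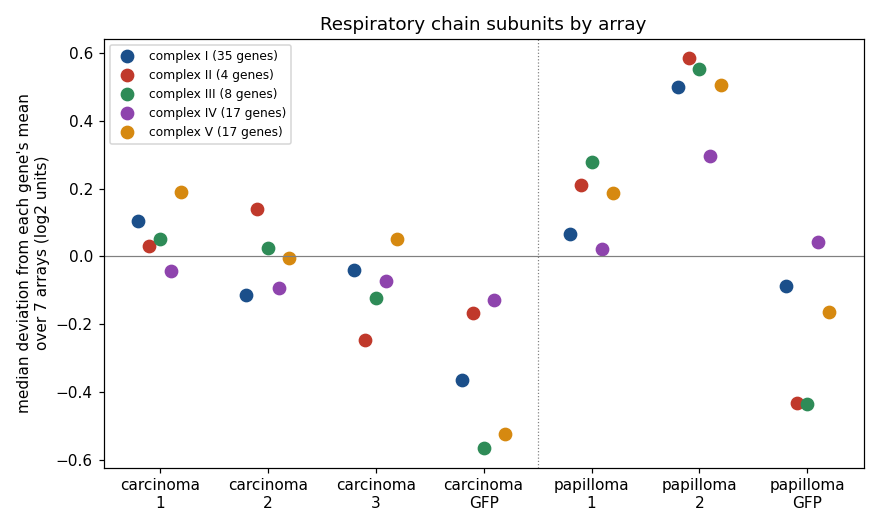
Median deviation of the subunits of each complex from their own mean over 7 arrays, in log2 units, by array, with carcinoma arrays on the left and papilloma arrays on the right of the dotted line. Each point is 1 complex on 1 array, and papilloma 2 holds the highest point of each complex (0.30 to 0.58).

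The carcinoma minus papilloma difference was also read apart in the GFP pair and in the untagged arrays. These differ in cell type markers, as given above, so they need not read the same difference, and the part of this was not tested. Carcinoma GFP was below papilloma GFP for 63 of 81 genes, with a median of -0.28, and carcinoma 1 to 3 were below papilloma 1 and 2 on average for 77 of 81, with a median of -0.34. Of all 18193 genes, 7806 were lower in carcinoma in the GFP pair (median 0.05) and 10536 in the untagged arrays (median -0.05). Complex I was at -0.38 in the GFP pair and -0.32 in the untagged arrays, complex IV at -0.17 and -0.25, and complex V at -0.23 and -0.36. Complex II stood at 0.42 in the GFP pair and -0.50 in the untagged arrays, and complex III at 0.03 and -0.53. For Sdhd the GFP pair read 9.30 in carcinoma and 8.93 in papilloma, while the untagged arrays read 10.70, 11.05 and 10.30 in carcinoma and 11.10 and 11.45 in papilloma. The interaction of tumour type and tag was called for 0 of 81 genes by limma at an adjusted p under 0.05 (0% of all genes), and 0 had an unadjusted p under 0.05 (2.14% of all genes). The GFP pair holds 1 array of each type, so its own spread is unknown.

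**Figure D3:**
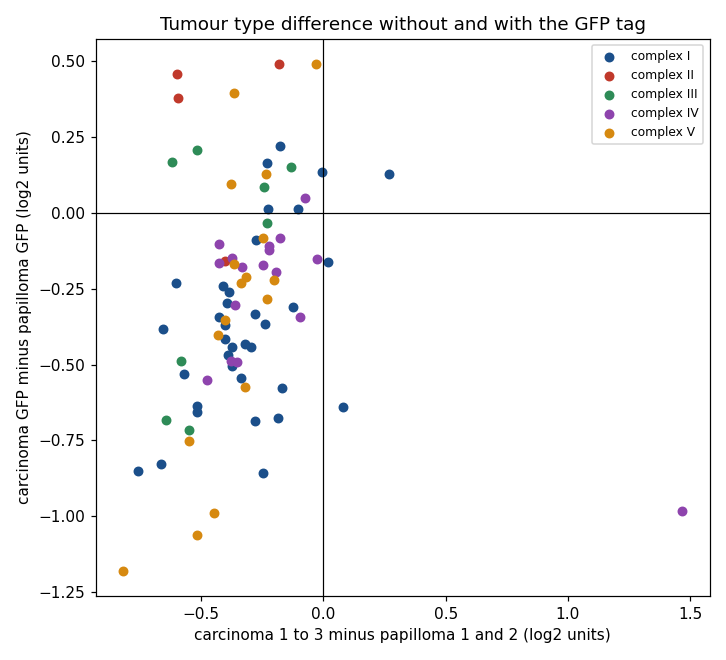
Carcinoma minus papilloma difference of each of the 81 subunits in the untagged arrays (horizontal, 3 against 2) and in the GFP pair (vertical, 1 against 1), in log2 units, coloured by complex. Most points lie at the lower left, 3 of the 4 complex II points lie at the upper left, and the point at the far right is the dim probe set of Cox7c.

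Across the 73 brighter subunits the tumour type difference had r = 0.10 and rho = 0.13 with mean level, as a description over genes that share the same arrays. Within the complexes it had r = -0.05 and rho = -0.04 in 34 genes of complex I, r = 0.57 and rho = 0.83 in 8 of complex III, r = 0.23 and rho = 0.70 in 10 of complex IV, and r = 0.41 and rho = 0.40 in 17 of complex V. Between levels of 10 and 11 the 27 subunits had a median of -0.28 against 0.03 for 964 genes in all, between 11 and 12 the 22 subunits -0.36 against 0.02 for 456 genes, and from 12 up the 17 subunits -0.19 against 0.00 for 214 genes. Without papilloma 2 the medians of these 3 bands were -0.04, -0.14 and -0.14 for the subunits, against -0.02, -0.01 and 0.02 for all genes. Other families of small, abundant products were set beside them. The 54 cytosolic ribosomal protein genes had a median of -0.06, with 37 lower in carcinoma, and the 76 mitochondrial ribosomal protein genes -0.17, with 66 lower. Without papilloma 2 these were 0.02, with 24 lower, and -0.03, with 48 lower.

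Among genes that build or feed the chain, 0 were called for tumour type. The medians were -0.06 for 15 complex I assembly factors, -0.16 for 4 of complex II, -0.13 for 6 of complex III, -0.23 for 19 of complex IV and 0.01 for 3 of complex V. The 6 measured subunits outside the symbol rule and electron carriers had a median of -0.09, from -0.38 for Cyc1, the cytochrome c1 subunit of complex III, to 0.04 for Etfa. The 12 coenzyme Q genes had a median of -0.19, the 12 citric acid cycle genes -0.06, and the 12 regulators of mitochondrial gene expression 0.03. Nrf1, Gabpa and Yy1, whose letters were searched above, differed by 0.06, 0.21 and 0.19, and Esrra, an oestrogen-related receptor, by -0.09, none past the test.

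The second comparison set the GFP arrays against the other 5 with tumour type in the fit. The tag is unexplained in the labels, so what separates these arrays cannot be told from them. Of the 81 subunits 24 fell on the GFP arrays by limma at an adjusted p under 0.05 (29.6%, against 7.93% of all genes), and 1 rose (1.23%, against 11.9% of all genes). Both GFP arrays lay below the other 5 for 31 subunits (38.3%, against 19.9% of all genes) and above them for 3 (3.7%, against 21% of all genes). The median difference was -0.39 over the subunits and -0.05 over all genes. Centring each array on its median moved these to -0.62 and -0.29. In these bulk samples fewer cells of a type and less RNA per cell cannot be told apart.

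**Figure D4:**
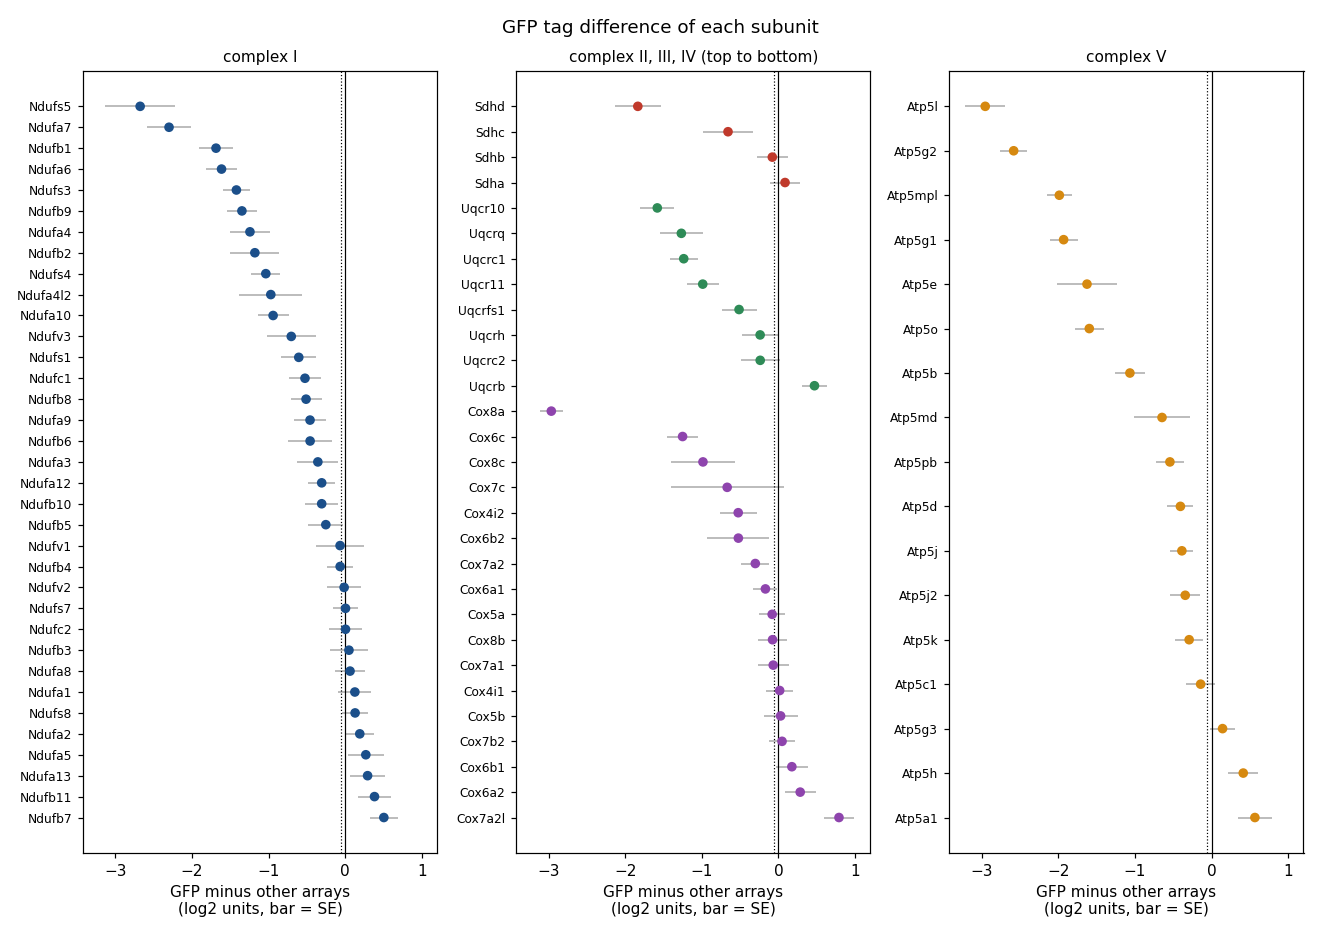
Difference between the 2 GFP arrays and the other 5 arrays for each subunit in log2 units, sorted within each complex. Bars are the SE of the limma fit with tumour type as a covariate, the dotted line is the median of all genes (-0.05), and differences run from -2.96 (Cox8a) to 0.79 (Cox7a2l).

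The subunits did not move as 1 block. Differences ran from -2.96 to 0.79: 5 subunits were lower by more than 2, 22 by more than 1, and 41 stayed within 0.5 of 0 in either direction. The median was -0.36 in complex I with 10 of 35 called lower, -0.37 in complex II with 1 of 4, -0.75 in complex III with 4 of 8, -0.08 in complex IV with 2 of 17, and -0.54 in complex V with 7 of 17. The count rests on both GFP arrays: 9 of 81 subunits were called lower without carcinoma GFP and 12 without papilloma GFP. Over all genes 3601 were called with all arrays, 861 without carcinoma GFP and 1462 without papilloma GFP. Ndufa6, Ndufs3, Cox8a, Atp5g1, Atp5g2, Atp5l, Atp5mpl and Atp5o, 8 genes in all, were called with each of the 7 arrays left out in turn. The calls of Ndufa7 and Uqcr10 were lost without carcinoma GFP, that of Sdhd without papilloma GFP, and those of Ndufs5, Uqcr11, Uqcrc1, Cox6c and Atp5b without either. Uqcrq lost its call without either GFP array and without carcinoma 1.

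In complex I the accessory subunit Ndufs5 was at 7.35 and 7.92 on the carcinoma and papilloma GFP arrays, against 10.76, 9.50 and 10.38 in carcinoma 1 to 3 and 9.71 and 11.06 in papilloma 1 and 2. It fell by 2.68 on the log2 scale (limma adjusted p = 0.0084), and the arrays did not overlap. RefSeq lists 1 pseudogene named after Ndufs5, so its only probe set may read another copy. Ndufa7, another accessory subunit, fell by 2.30 (limma adjusted p = 0.0025), and Ndufs3, a core subunit, fell by 1.42 (limma adjusted p = 0.00259). The core subunits Ndufs7, Ndufv2, Ndufv1 and Ndufs8 had differences of 0.00, -0.02, -0.07 and 0.13 and did not pass the test. Of their other probe sets, 1 of Ndufv2 read -1.44 and 1 of Ndufs8 read -0.99, while that of Ndufs7 read 0.02, so some of these readings depend on the probe set.

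In complex II the membrane anchor Sdhd, whose array values stand above, fell by 1.84 (limma adjusted p = 0.00752), and Sdhc differed by -0.66. Sdha differed by 0.09 and Sdhb by -0.08. In complex III the small subunit Uqcr10 fell by 1.58 (limma adjusted p = 0.00381), Uqcrq fell by 1.27, Uqcr11 fell by 0.99 and the core subunit Uqcrc1 fell by 1.24. Uqcrb, which helps hold cytochrome b, was at 13.54 and 13.46 on the carcinoma and papilloma GFP arrays, against 12.82, 12.99 and 12.95 in carcinoma 1 to 3 and 13.13 and 13.20 in papilloma 1 and 2. Both GFP arrays were the highest for Uqcrb, and its difference of 0.47 did not pass the test (limma adjusted p = 0.0983).

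Complex IV held the extremes. Cox8a, the smallest subunit encoded in the nucleus, was at 8.31 and 8.86 on the carcinoma and papilloma GFP arrays, against 11.36, 11.26 and 11.31 in carcinoma 1 to 3 and 11.72 and 11.85 in papilloma 1 and 2. It fell by 2.96 (limma adjusted p = 7.74e-05). Cox7a2l was at 12.07 and 12.17 on the GFP arrays, against 11.10, 11.07 and 11.20 in carcinoma 1 to 3 and 11.29 and 11.81 in papilloma 1 and 2. It was the subunit that rose, by 0.79 (limma adjusted p = 0.0352), a call that was lost without papilloma 1, without any 1 carcinoma array and without papilloma GFP. Cox6c fell by 1.25 (limma adjusted p = 0.0075). Cox4i1, Cox5a, Cox5b and Cox6a1 differed by 0.02, -0.08, 0.03 and -0.17, none past the test. A second probe set of Cox6c read -0.05 and one of Cox6a1 read -1.88, so these readings too depend on the probe set.

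In complex V the 3 genes that encode the same mature c subunit of the proton-driven ring differed from each other. Atp5g2 was at 8.67 and 8.84 on the carcinoma and papilloma GFP arrays, against 10.99, 11.23 and 11.27 in carcinoma 1 to 3 and 11.43 and 11.63 in papilloma 1 and 2. It fell by 2.58 (limma adjusted p = 0.0002). Atp5g1 fell by 1.93 (limma adjusted p = 0.000796). Atp5g3 was at 13.07 and 12.94 on the GFP arrays, against 12.69 to 13.05 on the others, a difference of 0.14 with overlap. Among membrane subunits, Atp5l (subunit g) fell by 2.95 (limma adjusted p = 0.000647) and Atp5mpl fell by 1.99 (limma adjusted p = 0.00049). RefSeq lists 3 pseudogenes named after Atp5l. Of the catalytic head, Atp5b fell by 1.07 (limma adjusted p = 0.0107), and Atp5a1 had a difference of 0.57 that did not pass. The other bright probe set of Atp5a1 read -0.64.

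The same genes were then read through probe sets of different kinds. Probe positions along the transcripts were not in the tables used here, so 3-prime bias was read from control probe sets and from probe sets of the same gene. For Gapdh the mean of the GFP arrays minus that of the others was -3.61 at the 5-prime probe set, -1.41 at the middle one and -0.43 at the 3-prime one. The 3-prime minus 5-prime difference of Gapdh was 3.19 on each GFP array, against -0.04 to 0.06 on the other 5. For Actb it was 2.21 and 2.58 on the carcinoma and papilloma GFP arrays, against 0.51 to 0.87 on the others. Tfrc and Pcx are dim, and their mean 3-prime minus 5-prime difference was only 0.02 and 0.33 higher on the GFP arrays.

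The subunits have 164 probe sets, and 39 subunits have at least 2 probe sets with a mean of 8 or more. Within these 39 genes the GFP difference ranged between probe sets by a median of 0.88, by over 1 in 17 genes and by up to 2.12 (Ndufa7), and it changed sign in 13. Ndufc2 read 0.02 on the probe set used here, and -0.48 and -1.87 on others of that level. Ndufa5 read 0.31 and -1.54, Uqcrb 0.49 and -0.71, and Cox7a2l 0.82, 0.79 and -0.23. Cox8a was low on both of its brighter probe sets, at -2.91 and -3.24, and Ndufa7 on all 5 of its own, from -3.81 to -1.70. These values are plain differences of means, without tumour type in the fit.

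**Figure D5:**
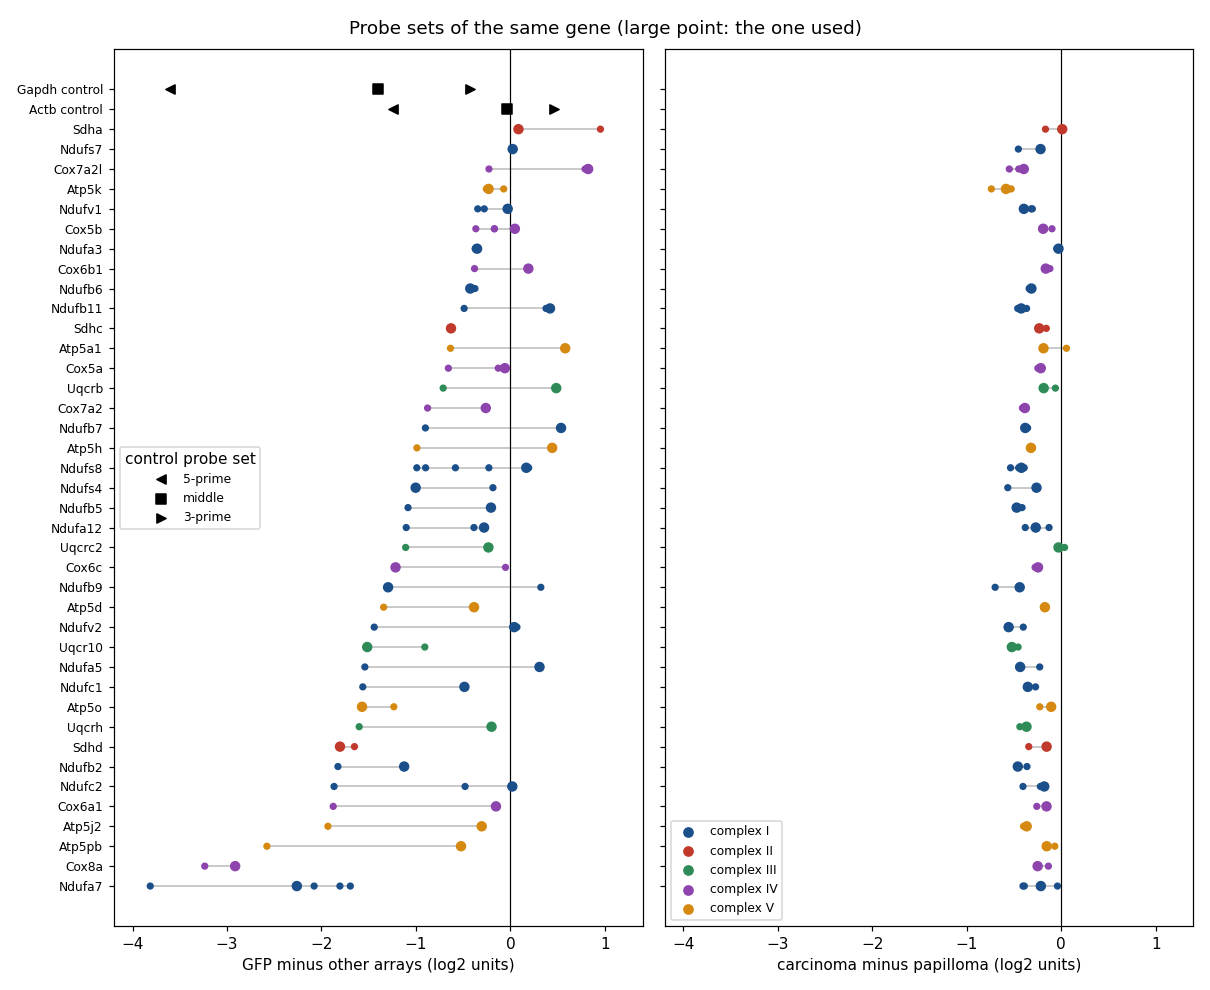
GFP minus other arrays (left) and carcinoma minus papilloma (right) for each probe set with a mean of 8 or more, in the 39 subunits with at least 2, as differences of means in log2 units. Lines join probe sets of 1 gene and large points mark the one used; the top rows of the left panel show the 5-prime, middle and 3-prime control probe sets. The left panel spreads within genes by a median of 0.88 and the right panel by 0.09.

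The carcinoma minus papilloma difference ranged between probe sets of a gene by a median of 0.09 and by at most 0.37. In 36 of the 39 genes all these probe sets were lower in carcinoma. Each tumour type holds 1 GFP array, so a shift shared by both GFP arrays largely cancels in this difference by design. Ndufs8 read -0.54 to -0.39 on its 6 probe sets and Atp5k was lower in carcinoma on each of its brighter ones. Probe sets of a gene share the RNA of the arrays and are not replicates.

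The GFP difference also varied with the kind and level of the probe set. The 28 brighter subunits read by a probe set ending in plain _at had a median of -0.99, with 13 lower by more than 1, against -0.29 for the 45 read by other kinds, which can share letters between transcripts, with 9 lower by more than 1. Across the 73 brighter subunits the GFP difference had r = 0.46 and rho = 0.52 with mean level, and r = 0.26 and rho = 0.27 with the level in the 5 untagged arrays. The first pair of values includes the GFP arrays on both sides. Subunits with levels between 10 and 11 had a median of -1.18, against -0.13 for all genes of that band, and those from 12 up 0.00 against -0.16. Choosing the brightest probe set by the 5 untagged arrays alone gave medians of -0.46, -0.37, -1.11, -0.08 and -0.64 in complexes I to V.

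Genes that build or feed the chain were counted the same way on the GFP arrays. Of 47 assembly factors 9 were called lower (19.1%, against 7.93% of all genes) and 1 higher (11.9% of all genes): Ecsit, for complex I, fell by 1.79 (limma adjusted p = 0.00507), Cox16, for complex IV, fell by 1.81 (limma adjusted p = 0.00188), and Uqcc3, for complex III, rose by 0.99 (limma adjusted p = 0.0167). Ndufab1, the acyl carrier subunit of complex I, fell by 2.03 (limma adjusted p = 0.00184). Of the regulators 3 of 12 passed the test, with differences of -0.90 for Esrra, -0.97 for Tfam and -1.10 for Tfb1m, and Nrf1 and Gabpa differed by -0.22 and -0.02. The cytosolic ribosomal protein genes had a median of -0.30, with 17 of 54 called lower and 1 higher, and the mitochondrial ribosomal protein genes -0.78, with 35 of 76 lower and 0 higher. Endothelial markers were higher and basal keratinocyte markers lower on the same arrays, as given above. Of the fibroblast markers 7 of 8 were called higher, with means of 11.64 and 10.56 on the carcinoma and papilloma GFP arrays against 6.20 to 8.15. Also called higher were 4 of 6 pericyte and smooth muscle markers, 3 of 6 myeloid markers and 1 of 4 fat markers. The counts were 0 of 8 for skeletal muscle, 0 of 4 for cardiac or slow muscle and 0 of 4 for testis. The part of these cell types, and of the low 5-prime readings of the controls, in the GFP differences was not tested.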

How the data were processed

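Per the labels' protocols, total RNA was extracted with a kit for small samples, amplified, labelled and hybridised to a strip-format Affymetrix mouse array, and normalization by the authors used RMA. RMA and affy stand in the submitters' processing notes; versions: not given in the sources used here. As deposited, the table has log2 values of 45101 probe sets on 7 arrays, from 2.72 to 14.51, with array medians of 5.38 to 5.51; the scale was read from the values. The platform annotation gives 34945 probe sets 1 symbol, 932 several and 9160 none. Probe sets with 1 symbol gave 18193 genes, each read by its brightest probe set, and dim ones were kept. Differences were fitted with limma 3.58.1 in R 4.3.3 (lmFit and eBayes) with Benjamini-Hochberg adjustment across the 18193 genes. Tumour type was fitted alone, the tag with tumour type, and then their interaction. Figures were drawn with matplotlib 3.10.9.

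Both tumour types have arrays labelled 1, 2 and GFP. Across genes, their deviations from the mean of the type correlated at 0.476, 0.194 and 0.861 for arrays of the same label, all above 0.1, so a fit with the replicate label as a block was run as an alternative. Arrays of different labels correlated at up to 0.683. Alternatives were array weights, centring, the mean of all probe sets, plain _at probe sets, leaving out dim genes, single arrays or the GFP arrays, and the tag as a covariate.

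Named genes were the 4 of smallest unadjusted p per complex in each comparison, complex II, listed core subunits, tissue paralogues, and called members of the pathway lists. Ndufa2, Ndufb5, Ndufs5, Cyc1, Etfa, Nrf1, Gabpa, Yy1 and the genes named for their probe sets were added after their values were seen. The subunits and lists were chosen with earlier results of these data known. The relation to protein length that had been planned was not run, since no protein table was used here.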

Additional observations from a re-analysis of the deposited data

Results flagged for a closer look

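Among the 4 carcinoma arrays, 8 of 55 results had 1 array far from the other 3. The rule was a ratio of its gap to the whole range above 0.829. Chance alone picks about 5% of such groups when genes are not picked by their values. The named genes include those of smallest GFP tag p, so that rate cannot be set against this count. Carcinoma GFP was the far array, as the lowest, for Uqcr10 (9.02), Cox8a (8.31), Atp5g1 (9.03), Atp5g2 (8.67) and Atp5mpl (9.33), and as the highest for Cox7a2l (12.07). Uqcrh had its low value in carcinoma 3 (11.16) and Cox4i1 in carcinoma 2 (12.30).

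For 8 of the 50 named genes the GFP pair moved up while all untagged carcinoma arrays lay below both untagged papilloma arrays. The share of all genes with this pattern is not given here, so the count cannot be set against it. The carcinoma minus papilloma difference in the GFP pair was 0.16 for Ndufs3, 0.49 for Sdha, 0.46 for Sdhc, 0.38 for Sdhd, 0.21 for Uqcrfs1, 0.17 for Uqcrh, 0.40 for Atp5a1 and 0.13 for Atp5g3. Outside the named genes, Uqcrb (0.086) and Atp5o (0.097) did the same. The interaction term called none of these 10 (limma adjusted p = 1 for each).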

How the results depend on the processing

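The tumour type count stayed at 0 of 81 in every alternative run. At an unadjusted limma p under 0.05 there were 1 to 17 subunits (17 with the tag as a covariate, 10 without papilloma 1). The share of all genes at that unadjusted p is not given for these alternatives, so these counts cannot be set against it. With the replicate block, 0 were called, 73 of 81 genes were lower and the median over the subunits was -0.33; the block changed no call. With single arrays left out, the median of complex IV lay between -0.301 (without carcinoma 3) and -0.068 (without papilloma 2), and it was -0.11 without papilloma 2 and the GFP arrays. Complex II moved to 0.42 within the GFP pair. Settings chosen after seeing the data were the GFP pair alone, the arrays without papilloma 2 and the GFP arrays, the brightest probe set by untagged arrays, and the alternatives of the interaction.

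For the GFP tag, 25 genes were called, 38 with array weights, and 9 to 24 with 1 array left out: 9 without carcinoma GFP and 12 without papilloma GFP, each of which leaves 1 tagged array assumed to vary like the others. Over all genes 3601 were called, 6819 with array weights, 861 without carcinoma GFP and 1462 without papilloma GFP. Centred arrays gave medians of -0.59, -0.32 and -0.78 in complexes I, IV and V. Plain _at probe sets alone gave -0.96, -0.08, -0.52 and -0.84 in complexes I, II, IV and V. The mean of all probe sets gave -0.31 in complex IV and -0.85 in complex V, and means over genes -0.37 and -0.90. Leaving out single arrays gave -0.743 to -0.063 in complex II, and the probe sets brightest in untagged arrays -1.11 in complex III. The cause was not tested. Of the named genes' tumour type differences, 14 of 50 changed sign without papilloma 2 and 12 without carcinoma GFP. Probe sets near background limit Ndufb4, Cox7c and the tissue forms of complex IV.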
